A study of Mus musculus with 14 samples.

Results

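Regions of the mouse genome that were called methylated in every pluripotent sample and in no fibroblast culture were described from MBD-seq. In this assay, fragments of sheared DNA that bind a protein with affinity for methylated CpG are recovered and sequenced, so that a peak of tags marks a stretch holding methylated CpG. Peaks of 14 samples on chromosomes 1 to 19 were merged where they shared at least 1 bp, which gave 147237 merged regions. A region was kept when it held a peak of all 8 induced pluripotent stem (iPS) cell clones and all 3 embryonic stem (ES) cell lines and no peak of the 3 cultures of mouse embryonic fibroblasts (MEFs). In all, 1524 regions met this rule, 1.04% of the merged regions and 6.98% of the 21834 regions that held a peak of all 11 pluripotent samples. The regions were thus selected on their peaks, and the absence of fibroblast peaks is a matter of choice and not a finding.

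The samples were 4 Aid+/+ iPS clones and 4 Aid-/- iPS clones at passage 6, 3 ES lines (RF8 of strain 129SV at passage 19, MG1.19 of 129Ola and B6 ES of C57BL6, called ES replicates 1, 2 and 3) and 3 Aid+/+ MEF cultures at passage 3. The study's methods name another substrain for RF8 than its label does. The iPS clones and the MEFs came from mice of a mixed background (C57BL6, DBA and 129S4) that carried a Nanog-GFP reporter, and in the Aid-/- clones Aid, the cytidine deaminase of antibody diversification, was disrupted. The pluripotent cells were grown on gelatin with LIF, and only the iPS clones received puromycin. The iPS clones were picked as colonies from MEFs given retroviral reprogramming factors, and several share a clone series in their titles, which limits how far 4 clones stand for a genotype. Tags left after the authors' filter on duplicates ranged from 6.65 M (M for mega) to 15.9 M in the pluripotent samples and from 17.5 M to 19.6 M in the MEFs. Peaks on these chromosomes numbered 65859 to 106408 in the iPS clones, 31650 to 101951 in the ES lines and 33500 to 54953 in the MEFs. ES replicate 2 stood apart with 31650 peaks, and it touches every count that asks for all 11 samples. Peaks at the starts of 10 marker genes gave little by which to check the cell types. Nanog had a peak in 2 of 3 MEF cultures and in no pluripotent sample, and Tdgf1 in 1 MEF culture. Col1a1 had a peak in all 8 iPS clones, 1 ES line and no MEF culture. Pou5f1 had a peak in all 8 iPS clones and in no ES line or MEF culture. The other 6 genes had none in any sample. Pou5f1 was among the retroviral factors given to make the iPS clones. Whether tags of that added copy made the Pou5f1 peak was not tested. By pyrosequencing, the paper reports low methylation of the promoter of this gene in iPS cells of both genotypes. The Pou5f1 peak therefore need not mark methylation at the gene's own start.

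DNA methylation in mammals is the addition of a methyl group to the cytosine of a CpG. It is set by de novo enzymes, copied at replication by Dnmt1, and lost over many regions of differentiated cells, while most CpG outside CpG islands stays methylated. Pluripotent cells keep the gene bodies and the stretches between genes methylated, and CpG islands at promoters unmethylated, apart from those of some germline and imprinted genes. A protein that binds methyl-CpG captures a fragment the better the more methylated CpG it holds, so a region with few CpG yields few tags even where every CpG is methylated.

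Sequences are shown for regions with the highest fold enrichment in their lowest pluripotent sample. They are the extreme of the 1524 regions and need not be typical. Fold enrichment is a peak's enrichment over the local background, as MACS gave it, and need not rank samples as their tag counts do. The 200 bases around the median summit of the 11 samples are given for 4 of the first 6 (NCBI build 37, plus strand), with each CpG in capitals:
Plcl1, chr1:55714546-55714745: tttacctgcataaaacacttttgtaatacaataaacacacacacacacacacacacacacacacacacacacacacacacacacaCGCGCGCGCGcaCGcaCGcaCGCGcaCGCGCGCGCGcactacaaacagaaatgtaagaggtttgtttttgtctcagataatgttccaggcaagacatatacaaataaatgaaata
Col25a1, chr3:130176964-130177163: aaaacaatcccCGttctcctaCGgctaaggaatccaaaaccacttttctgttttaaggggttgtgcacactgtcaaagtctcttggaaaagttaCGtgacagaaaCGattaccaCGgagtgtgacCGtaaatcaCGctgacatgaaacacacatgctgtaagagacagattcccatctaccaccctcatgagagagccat
Gm20388, chr8:123839946-123840145: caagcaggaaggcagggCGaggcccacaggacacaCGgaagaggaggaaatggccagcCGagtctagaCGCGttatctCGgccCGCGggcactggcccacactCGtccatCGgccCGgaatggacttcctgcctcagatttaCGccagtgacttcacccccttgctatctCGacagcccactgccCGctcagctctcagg
E130111B04Rik, chr11:101894729-101894928: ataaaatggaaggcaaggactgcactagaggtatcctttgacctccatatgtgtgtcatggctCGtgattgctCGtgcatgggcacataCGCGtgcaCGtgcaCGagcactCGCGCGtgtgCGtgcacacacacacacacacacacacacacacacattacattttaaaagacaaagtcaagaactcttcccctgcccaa
The windows of Plcl1, Gm20388 and E130111B04Rik held 14, 14 and 10 CpG, and that of Col25a1 held 7. In Plcl1 and E130111B04Rik many of the CpG stood beside a run of alternating C and A. Of all 1524 regions, 113 (7.41%) held CA repeated 10 times (CACACACACACACACACACA, either strand) within 300 bases at the summit, against 2.99% of the 14579 regions with a peak of all 14 samples. CG repeated 4 times (CGCGCGCG) was present in 45 regions (2.95%) against 1.26%. These letter searches were chosen after the first sequences had been seen.

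The window of 731 bp in an intron of Plcl1 (chr1:55714338-55715068, 37.5 kb from the nearest protein-coding start) had the highest such value. Plcl1 codes for a phospholipase C-like protein without catalytic activity. Its fold enrichment was 36.9, 34.9, 38.3 and 36.5 in Aid+/+ iPS replicates 1 to 4, 39.0, 35.1, 30.9 and 38.04 in Aid-/- iPS replicates 1 to 4, and 27.5, 28.2 and 25.9 in the ES lines. The 3 ES lines lay below all 8 iPS clones, and the genotypes overlapped. The nearest MEF peak was 22.4 kb away.

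Col25a1, which codes for a transmembrane collagen, held the next highest region (chr3:130176464-130177649, within the promoter window and 862 bp from a start). Fold enrichment was 38.5, 36.3, 37.9 and 30.02 in the Aid+/+ clones, 35.1, 35.2, 28.2 and 34.8 in the Aid-/- clones, and 27.4, 25.5 and 32.6 in the ES lines. All 3 groups overlapped. The nearest MEF peak was 33.9 kb away.

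The remaining 4 of these 6 regions were a pair on chromosome 18, an intron of Gm20388 and an intron of the non-coding gene E130111B04Rik. The chromosome 18 regions lay between genes, 31.3 kb from Vmn1r238 (chr18:3154742-3155829) and 14.2 kb from Ppargc1b (chr18:61574297-61575193), the latter a coactivator of mitochondrial genes. Gm20388 is an annotated model of 4430 kb that spans many other genes of chromosome 8, so its name says little about the region (chr8:123839497-123840571), whose nearest MEF peak was 5.42 kb away. The E130111B04Rik region (chr11:101894291-101895360) lay 4.52 kb from the protein-coding gene Mpp3. Mean fold enrichment in these 4 regions ranged from 32.6 to 36.2 in the Aid+/+ clones, 31.8 to 34.5 in the Aid-/- clones and 26.1 to 31.4 in the ES lines. In each of the 4 the genotypes overlapped.

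**Figure D1:**
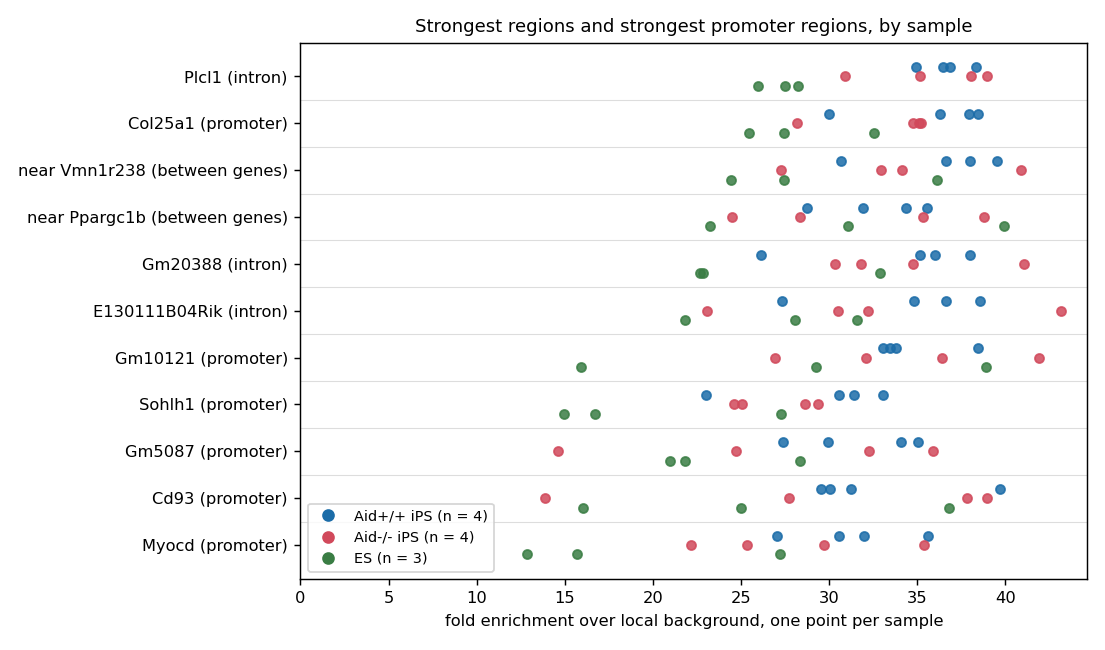
Fold enrichment of the 6 strongest regions and of the 6 strongest promoter regions (Col25a1 is in both, so 11 are drawn), with 1 point per sample (4 Aid+/+ iPS clones, 4 Aid-/- iPS clones, 3 ES lines). The lowest value of each region belongs to an ES line or to Aid-/- iPS replicate 4, as in Cd93, where that clone had 13.9 and the other Aid-/- clones 27.7 to 39.0.

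Promoters were few. A region counted as a promoter when it touched the stretch from 1000 bp before to 500 bp after a protein-coding transcript start, and 34 of the 1524 regions (2.23%) did, against 2.96% of the regions with a peak of all 14 samples. The 5 promoter regions that followed Col25a1 in lowest fold enrichment belonged to Gm10121, Sohlh1, Gm5087, Cd93 and Myocd. The summit windows of the 3 among named proteins are shown (NCBI build 37, plus strand, CpG in capitals), and those of Sohlh1 and Cd93 overlap coding exons:
Sohlh1, chr2:25702143-25702342: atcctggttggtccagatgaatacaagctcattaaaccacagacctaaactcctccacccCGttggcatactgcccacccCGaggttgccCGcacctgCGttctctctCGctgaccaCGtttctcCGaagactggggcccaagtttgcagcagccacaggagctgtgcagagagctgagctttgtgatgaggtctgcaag
Cd93, chr2:148268204-148268403: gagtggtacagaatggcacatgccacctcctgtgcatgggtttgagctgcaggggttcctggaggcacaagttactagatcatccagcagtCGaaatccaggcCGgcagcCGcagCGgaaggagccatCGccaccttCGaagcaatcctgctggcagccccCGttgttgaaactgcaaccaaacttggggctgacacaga
Myocd, chr11:65018336-65018535: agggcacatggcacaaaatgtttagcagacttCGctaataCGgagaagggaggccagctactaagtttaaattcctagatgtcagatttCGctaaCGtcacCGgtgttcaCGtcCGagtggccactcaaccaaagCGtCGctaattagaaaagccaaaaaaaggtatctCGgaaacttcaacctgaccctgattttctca
They held 7, 7 and 10 CpG, and none of these promoter regions met the measure of CpG richness given further on.

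Sohlh1, a transcription factor of germ cell differentiation, had a region over its start (chr2:25701336-25703184, with part in its untranslated region) that held 50 CpG and lay 53.1 kb from any MEF peak. Fold enrichment there was 33.1, 31.4, 30.6 and 23.0 in the Aid+/+ clones, 28.6, 29.4, 25.04 and 24.6 in the Aid-/- clones, and 14.95, 16.7 and 27.3 in ES replicates 1, 2 and 3. ES replicates 1 and 2 lay below all iPS clones and ES replicate 3 lay among them.

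Myocd, which codes for myocardin, a coactivator of smooth and cardiac muscle genes, had a region 50 bp from its start (chr11:65017989-65018919). Fold enrichment was 35.6, 30.6, 32.0 and 27.1 in the Aid+/+ clones, 29.7, 35.4, 25.4 and 22.2 in the Aid-/- clones, and 15.7, 12.9 and 27.2 in the ES lines. As in Sohlh1, ES replicates 1 and 2 lay below all iPS clones and replicate 3 lay among them. A MEF peak lay 1.12 kb from this region, outside it.

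Cd93, which codes for a lectin-like receptor of endothelial and myeloid cells, had a region 486 bp from its start (chr2:148267762-148268813). Fold enrichment was 32.6 ± 4.75 in the Aid+/+ clones (SD, n = 4), 29.6 ± 11.7 in the Aid-/- clones (SD, n = 4) and 25.9 ± 10.4 in the ES lines (SD, n = 3). The predicted genes Gm10121 (chr16:16048530-16049362) and Gm5087 (chr14:14002638-14003659) had regions over their starts. In Gm10121 the values were 34.7 ± 2.52, 34.3 ± 6.36 and 28.0 ± 11.5, and in Gm5087 they were 31.6 ± 3.57, 26.9 ± 9.40 and 23.7 ± 4.03, in the same order of groups and with the same n. The genotypes overlapped in each of these 3 regions.

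A CpG-rich window, taken as 500 bp at the centre with a GC content of at least 55% and a CpG observed over expected of at least 0.6, was found in 3 of the 1524 regions (0.197%) against 974 of the 14579 regions with a peak of all 14 samples (6.68%). Regions of all 11 pluripotent samples with a peak of 1 or 2 MEF cultures were as low, at 0.0978% and 0.244%. Of the 3 regions without a MEF peak, those described here were named after their values had been seen. They were an intron of Plcd3 (chr11:102948588-102950284, 308 bp from a MEF peak) and a stretch 3.30 kb from Spint4 (chr2:164531250-164532440).

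The longest region ran over 8098 bp between genes, 54.9 kb from Gpm6a (chr8:56201087-56209184), with 110 CpG and no MEF peak within 67.1 kb. It held 202, 423, 593 and 924 tags in the Aid+/+ clones, 520, 397, 549 and 126 in the Aid-/- clones, and 313, 647 and 1024 in the ES lines. Aid+/+ replicate 1 and Aid-/- replicate 4 were the lowest clones of their genotypes here, with 12.7 and 11 tags per M filtered tags against 36.4 to 95.9 in the other clones. Next in length were the promoter of the circadian clock gene Per1 (chr11:68914090-68917242, 3153 bp) and an exon of the cytolinker gene Dst (chr1:34330696-34333687, 2992 bp). At Per1 fold enrichment was 14.6 ± 0.816 in the Aid+/+ clones (SD, n = 4), 12.3 ± 0.512 in the Aid-/- clones (SD, n = 4) and 9.01 ± 0.555 in the ES lines (SD, n = 3). The lowest Aid+/+ clone had 13.4 and the highest Aid-/- clone 13.1, so the genotypes did not overlap in fold enrichment. In tags per M they did overlap, and the adjusted p was 1.00 in the fit across all regions (edgeR quasi-likelihood test). How many other regions had genotypes apart in fold enrichment was not counted. A MEF peak lay 638 bp from the Per1 region.

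Positions in the annotation were compared with those of the 14579 regions that held a peak of all 14 samples, as a description with no test, since both sets were chosen by their peaks. Introns held 413 of the 1524 regions (27.1%) against 18.8%, exons 349 (22.9%) against 23.4%, and 728 (47.8%) lay between genes against 54.9%. Regions more than 100 kb from any protein-coding gene made up 256 (16.8%) against 23%. Regions of all 11 pluripotent samples with a peak of 1 or 2 MEF cultures fell between in intron share, at 24.6% and 22.0%. The median distance to a protein-coding start was 42290 bp in the 1524 regions against 42710 bp in those of all 14 samples. By chromosome, the share among regions with peaks of all 11 pluripotent samples was highest on chromosome 8 (151 regions, 10.2%) and chromosome 11 (119 regions, 9.38%) and lowest on chromosome 14 (39 regions, 4.18%). The regions were scattered: 197 (12.9%) had another such region within 50 kb, and the median distance to the next was 431 kb.

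**Figure D2:**
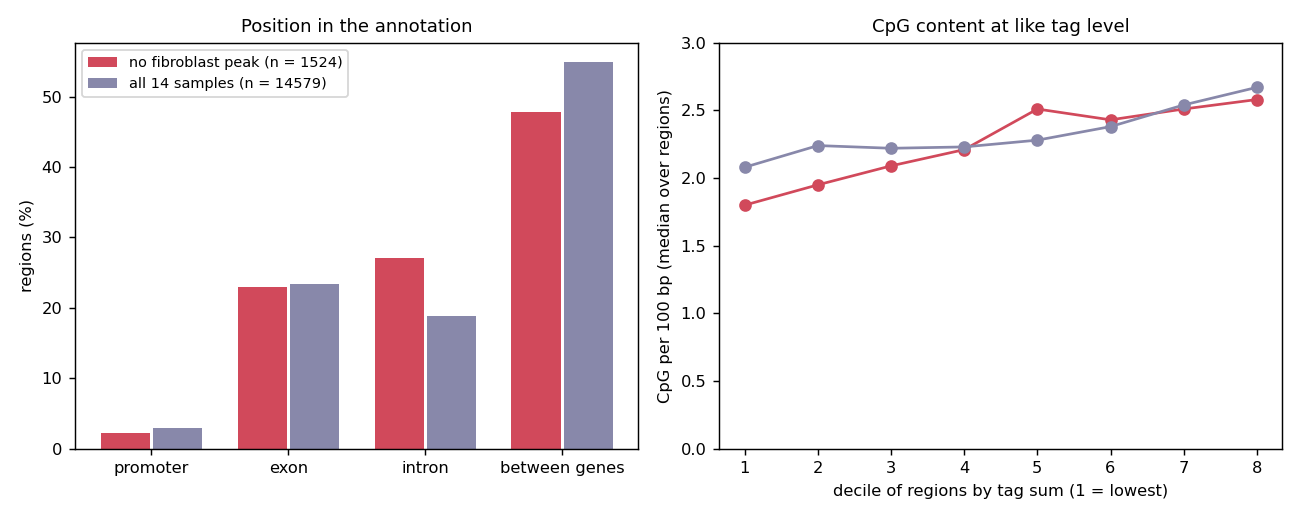
Left, percent of regions at promoters, exons, introns and between genes for the 1524 regions without a fibroblast peak and the 14579 regions with a peak of all 14 samples. Right, median CpG per 100 bp in both sets by decile of the tags summed over the 11 pluripotent samples (deciles 1 to 8, since deciles 9 and 10 hold 4 and 1 of the 1524 regions), where the values are 1.80 against 2.08 in the lowest decile, 2.51 against 2.28 in the fifth and 2.58 against 2.67 in the eighth.

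The regions were short, and low in CpG. Their median length was 990.5 bp (quartiles 898 and 1099 bp) against 1260 bp in the regions of all 14 samples, and the median number of CpG was 19 against 33. CpG per 100 bp had a median of 1.92 (quartiles 1.60 and 2.28) against 2.61, and the observed over expected CpG was 0.352 against 0.458. GC content differed less, 47.1% against 48.2%. In 300 bp at the summit the median was 10 CpG against 15. Regions with a peak of 1 or 2 of the 3 MEF cultures, which number 2045 and 3686, fell between, with 2.07 and 2.18 CpG per 100 bp. Their median lengths, 1027 and 1070 bp, fell between too.

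Signal moved with these features and was low. Tags summed over the 11 pluripotent samples had a median of 467 against 1490 in the regions of all 14 samples. In regions with a peak of 1 or 2 MEF cultures the median sum was 563 and 733. When the 21834 regions with peaks of all pluripotent samples were ranked by this sum, 37.9% of the lowest decile lacked a MEF peak, 15.6% of the second, 7.01% of the third and 0.0458% of the highest. In all, 88 of the 1524 regions (5.77%) reached the median of the ranked regions, 1070 tags. Ranked by the number of CpG, the share fell from 25.1% in the lowest decile to 0.183% in the highest. Within a decile of like tag number the CpG content of both sets was closer, 1.95 against 2.24 per 100 bp in the second decile and 2.21 against 2.23 in the fourth, and the order turned in the fifth (2.51 against 2.28) and sixth (2.43 against 2.38), while introns were more frequent in each of the first 4 deciles, for example 29.0% against 20.9% in the second. The part of tag level and of peak number in the absence of MEF peaks was not tested.

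**Figure D3:**
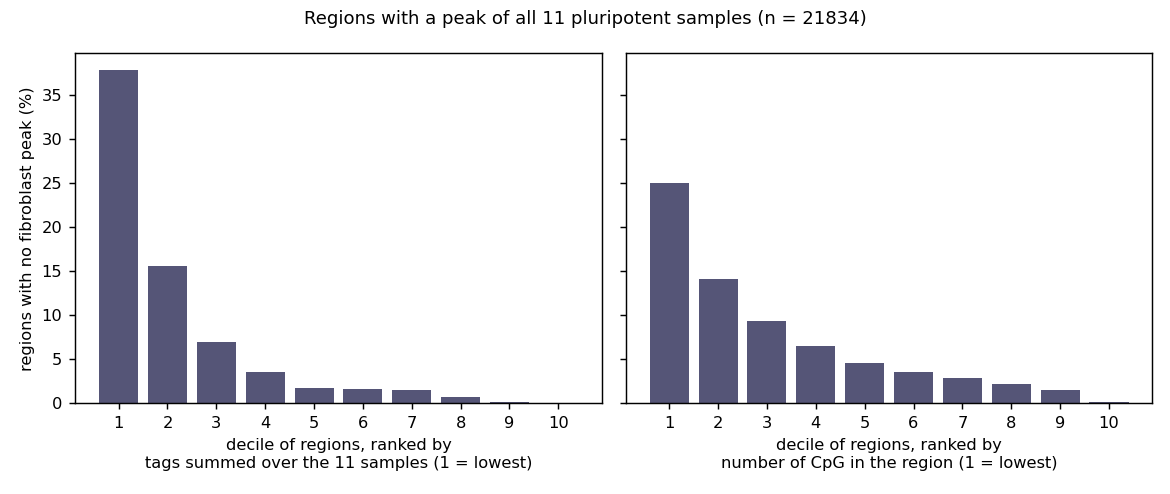
Percent of the 21834 regions with a peak of all 11 pluripotent samples that held no fibroblast peak, by decile of summed tags (left) and by decile of CpG number (right). The bars fall from 37.9% to 0.0458% and from 25.1% to 0.183%.

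The absence of a MEF peak is not the absence of methylation, because the lists hold only peaks past a p-value cutoff of 1e-05. At the 14579 regions where all samples had a peak, the MEFs had a median of 3.95 to 5.82 tags per M filtered tags, against 12.1 to 13.8 in the iPS clones and 4.31 to 10.8 in the ES lines. When pluripotent peaks had to reach p of 1e-10 and all MEF peaks were kept, 321 regions remained under the rule. When every sample was cut to its 31650 most significant peaks, 518 regions met it. Without ES replicate 2 the count rose to 4730, and without MEF replicate 2 to 2855. ES replicate 2 held the least significant peak of 866 of the 1524 regions (56.8%), ES replicate 1 of 198 (13%) and Aid-/- iPS replicate 4 of 196 (12.9%).

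At the edge of the rule lay regions whose weakest pluripotent peak had a p of about 1e-05, written as a −log10 p of 5. They were an intron of the adducin gene Add3 (chr19:53240430-53241211), an intron of D030018L15Rik (chr15:95897604-95898358) and a stretch 451 kb from Vrk1 (chr12:107767118-107768047). In Add3 the weakest values belonged to ES replicates 1 and 2, with 12 and 14 tags against 18 to 64 in the other samples. Just outside lay regions with a single MEF peak at the same limit: one 287 kb from Mzt1 (chr14:99145765-99146988), one 57.3 kb from B3galnt2 (chr13:13988795-13989667) and an exon of Arhgap44 (chr11:64835223-64837005). The region near Mzt1 had a fold enrichment of 18.2 to 34.0 in the pluripotent samples and 6.45 from 17 tags in MEF replicate 2, so it was missed by the rule for 1 weak peak.

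MEF peaks were seldom far away. The median distance from a region to the nearest MEF peak was 8716 bp. In 149 regions (9.78%) it was at most 1 kb, in 560 (36.7%) at most 5 kb, and in 1405 (92.2%) at most 50 kb.

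Sequence shared between many regions was less frequent than in the regions of all 14 samples. Simple repeats such as runs of CA were left out of the shared stretches counted here. Runs of CA and of CG were more frequent, as given above. A region was called recurrent when at least 50% of its bases lay in stretches of 24 bases found in more than 20 of the 21834 regions, which was so for 135 of the 1524 regions (8.86%) against 6540 of 14579 (44.9%). With a peak of 1 or 2 MEF cultures, 16.6% and 22.0% of regions were recurrent. Among non-recurrent regions alone, introns still held 28.1% of those without a MEF peak against 19% of those of all 14 samples, and CpG per 100 bp was 1.89 against 2.35. Searching for regions that shared at least 300 stretches of 24 bases, a step chosen after the data had been seen, gave 20 groups with 106 regions. The largest held 53 regions on 18 chromosomes, of which 41 lay between genes and none at a promoter.

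These 53 regions were unlike the rest in level. Their median tags per M were 9.34 to 13.5 in the iPS clones and 5.45 to 11.2 in the ES lines, against 2.62 to 4.88 and 1.35 to 3.55 in the other 1471 regions. Their fold enrichment was lower, 6.95 to 10.9 over the 11 samples against 10.9 to 25.2. All 53 had a MEF peak within 5 kb, at a median distance of 2458 bp (quartiles 1897 and 2549 bp). Reads from near-identical copies may be placed on any of them, so the value of a single copy is uncertain.

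Level by sample was taken next. The median fold enrichment over the 1524 regions was 18.9, 22.9, 24.7 and 20.1 in Aid+/+ replicates 1 to 4, 23.5, 23.1, 21.1 and 15.4 in Aid-/- replicates 1 to 4, and 16.5, 10.9 and 19.9 in ES replicates 1 to 3. The group values were 21.6 ± 2.64 (SD, n = 4), 20.8 ± 3.73 (SD, n = 4) and 15.8 ± 4.54 (SD, n = 3). Aid-/- replicate 4 was the lowest iPS clone and overlapped the ES lines. At the regions of all 14 samples the same medians were 22.5 ± 3.76, 22.8 ± 2.14 and 20.5 ± 2.21.

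The ratio of both medians within a sample removes what a library does to all its peaks alike. It was 0.7, 1.03, 1.10 and 1.13 in the Aid+/+ clones, 0.961, 0.966, 1.07 and 0.666 in the Aid-/- clones, and 0.793, 0.6 and 0.883 in the ES lines. Aid+/+ replicate 1 and Aid-/- replicate 4 thus lay with the ES lines, and the other 6 clones above them. The same 2 clones had the lowest share of filtered tags in these regions among the iPS clones, 0.536% and 0.527% against 0.690% to 0.862%.

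**Figure D4:**
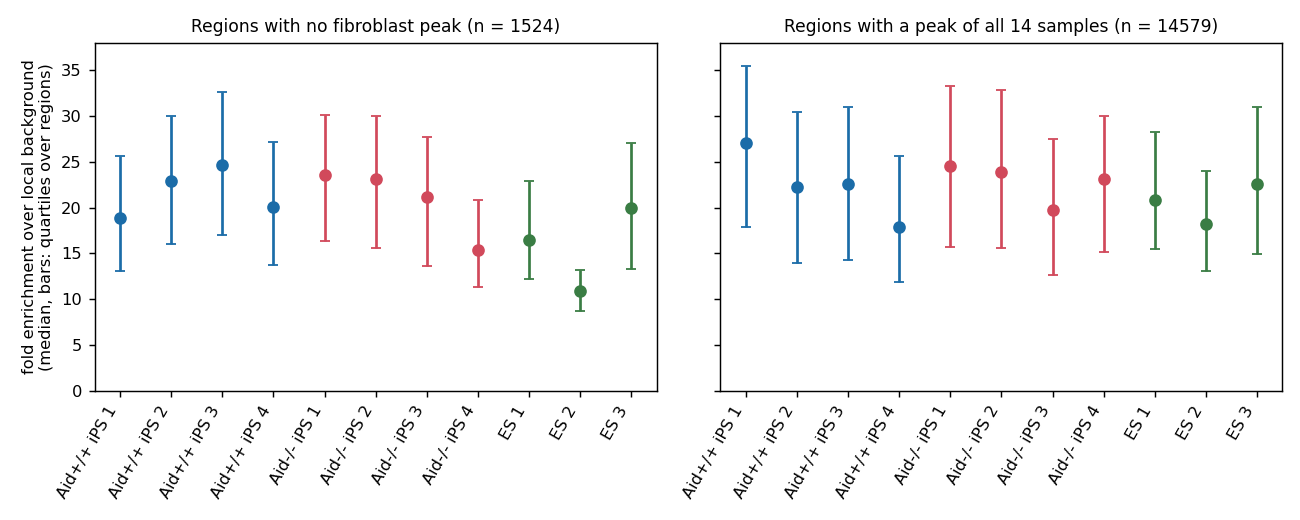
Median fold enrichment (points) with quartiles over regions (bars) in each pluripotent sample, at the 1524 regions without a fibroblast peak (left) and at the 14579 regions with a peak of all 14 samples (right). On the left ES replicate 2 is lowest at 10.9 and Aid+/+ iPS replicate 3 highest at 24.7, and on the right the medians lie between 17.9 and 27.1.

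Summits agreed closely between samples. The span from the first to the last summit of the 11 samples had a median of 71 bp (quartiles 53 and 95 bp). In the regions of all 14 samples, which were longer, the median was 79 bp (quartiles 51 and 215 bp). The span was at most 100 bp in 1186 regions (77.8%), against 59.4% of the regions of all 14 samples. Tags per M varied more between the 8 iPS clones, with a median coefficient of variation of 0.291 against 0.175, at fewer tags per region. Highest were an intron of the tumour suppressor Fhit (chr14:11334887-11336008, 0.661), the long region near Gpm6a (0.641) and a stretch 14.2 kb from Mrps36-ps1 (chr17:54020594-54021582, 0.626). In the Fhit intron the tags per M were 2.20, 2.06, 9.25 and 9.55 in the Aid+/+ clones, 6.28, 6.67, 2.71 and 1.48 in the Aid-/- clones, and 3.62, 1.41 and 7.16 in the ES lines. High and low clones occurred in both genotypes. The 4 high clones, Aid+/+ replicates 3 and 4 and Aid-/- replicates 1 and 2, carry 1 clone series in their titles, an arrangement noticed after the values were seen.

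Across the 1524 regions, log2 tags per M correlated between samples with a median Pearson r of 0.742 over 16 pairs of an Aid+/+ and an Aid-/- clone (0.621 to 0.803), 0.734 over 6 pairs of Aid+/+ clones and 0.744 over 6 pairs of Aid-/- clones. Pairs of an ES line and an iPS clone were lower, 0.475 with Aid+/+ and 0.555 with Aid-/- clones over 12 pairs each, and so were the 3 pairs of ES lines (0.394 to 0.605). ES replicate 3, of strain C57BL6, had a median r of 0.690 with the 8 iPS clones, and ES replicates 1 and 2, of 129 strains, had 0.465 and 0.467. At the regions of all 14 samples ES replicate 3 was again highest (0.875), with 0.772 and 0.759 for ES replicates 1 and 2. These correlations are across regions, which share libraries, depth and base composition, and line, strain and depth of the ES samples cannot be told apart.

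Tags were then compared between genotypes, which the rule treats alike. The edgeR quasi-likelihood test with Benjamini-Hochberg (BH) adjustment was run on all 47835 merged regions that held a peak of all 8 iPS clones, and none of the 1524 regions was called at an adjusted p under 0.05, where 0.00209% of all regions tested (a single region) was called. At an unadjusted p under 0.05, 10 of the 1524 (0.656%) were higher in Aid-/- clones, where 2.10% of all tested were, and 39 (2.56%) were lower, where 1.53% of all tested were. DESeq2 also called none of them, where it called 0.0502% of all tested. The p-values measure only the spread between these clones, and which clones share a mouse is not given in the sources used here.

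As a set the regions leaned low in Aid-/- clones, by little. The median log2 difference was -0.10, with 999 regions lower and 525 higher, and that of all 47835 regions was -0.0025. These regions share the same clones, so the counts are not independent. With filtered tags as library size, the scale of tags per M, the median log2 difference was -0.17, and -0.071 over all regions tested. The clones' own medians of log2 tags per M had a pooled SD of 0.372 within genotypes, more than that difference. This SD is a spread of single clones and not of a difference between groups. With the TMM scaling of edgeR, the median was -0.03 without Aid-/- replicate 4 and -0.18 without Aid+/+ replicate 1. A further term was made from the MACS version and the name prefix, digits removed, in the file headers. Within its classes only Aid+/+ replicate 1 stands against Aid-/- replicates 1, 2 and 4. With this term the median was 0.16, with 975 regions higher. Scaling by the length of each sample's peaks took it to 0.00085. The 53 regions of shared sequence went the other way, with a median of 0.23, and held 6 of the 10 regions that were higher at an unadjusted p under 0.05 and none of the 39 lower ones, against a median of -0.11 in the other 1471.

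The region with the lowest p was an intron of the sorting nexin gene Snx24 (chr18:53461169-53462138), with 2.26, 4.90, 5.49 and 4.46 tags per M in the Aid+/+ clones and 1.78, 1.92, 2.71 and 1.4 in the Aid-/- clones. The groups overlapped by Aid+/+ replicate 1, and the log2 difference of -1.06 ± 0.28 (SE) had an adjusted p of 0.878 in edgeR. Next among the lower ones was a stretch 403 kb from Gm17391 (chr12:23781554-23782812), with 6.97, 11.6, 12.4 and 11 against 4.60, 5.06, 9.17 and 5.59 tags per M and a log2 difference of -0.72 ± 0.21 (SE, adjusted p = 1.00 in edgeR). The ES lines had 2.84, 1.62 and 5.42 there, and Aid+/+ replicate 1 was again the low clone of its group.

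Among the higher ones the lowest p fell on a stretch 15.5 kb from Cyp2d37-ps (chr15:82536415-82537243) and on an intron of Reln (chr5:21711445-21712532), which codes for reelin, a secreted guide of migrating neurons. Near Cyp2d37-ps the tags per M were 2.14, 2.15, 1.49 and 2.18 in the Aid+/+ clones and 3.00, 2.93, 4.96 and 2.71 in the Aid-/- clones. In Reln they were 11.9, 10.4, 11.4 and 10.1 against 14, 12.8, 16.5 and 14.7. The genotypes did not overlap in either, and both regions had been picked for their low p. How many other regions had genotypes apart was not counted. The log2 differences were 0.78 ± 0.27 and 0.46 ± 0.18 (SE), each with an adjusted p of 1.00 in edgeR. In the Reln region 70.0% of the bases recur in other regions.

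**Figure D5:**
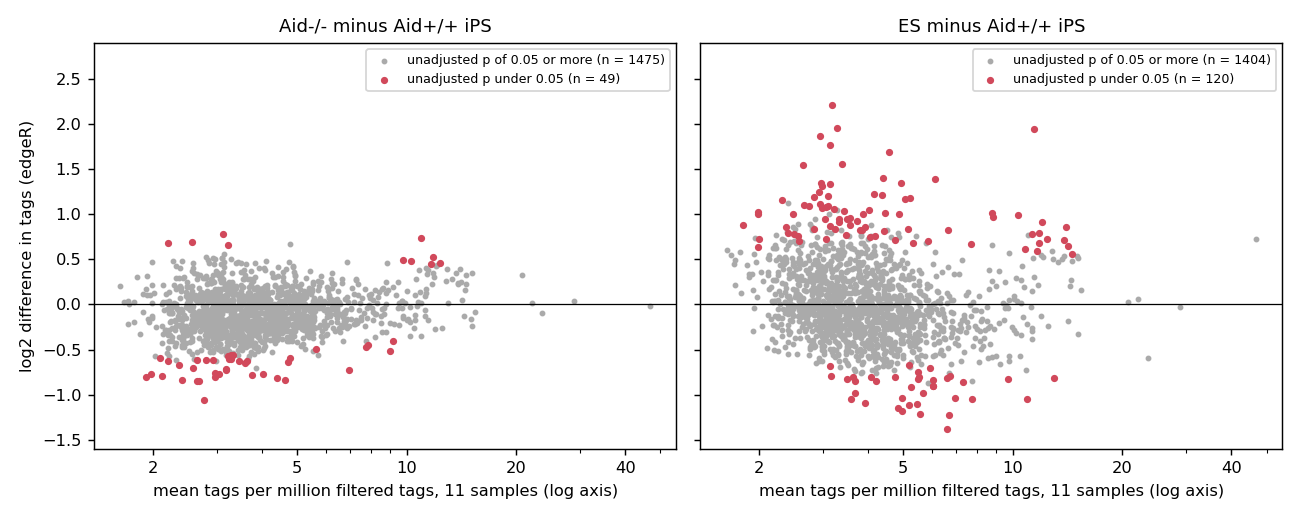
Log2 difference in tags (edgeR) of each of the 1524 regions against its mean tags per M filtered tags on a log axis, Aid-/- minus Aid+/+ iPS clones (left) and ES lines minus Aid+/+ iPS clones (right). Red points have an unadjusted p under 0.05 (49 on the left, 120 on the right), and no region passed an adjusted p under 0.05.

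ES lines were compared with the Aid+/+ clones at the 22466 regions that held a peak of these 7 samples. None of the 1524 regions was called at an adjusted p under 0.05, where 0.0178% of all tested was called. At an unadjusted p under 0.05, 83 (5.45%) were higher in ES lines, where 5.42% of all tested were, and 37 (2.43%) were lower, where 4.63% were. The median log2 difference of the 1524 was -0.04, that of all tested -0.028, with the TMM scaling of edgeR. With filtered tags as library size, the scale of tags per M, these medians were -0.69 and -0.68. DESeq2 called 10 of the 1524 (0.656%), where 1.39% of all tested were called (208 higher, 104 lower). With all 8 iPS clones as the reference edgeR called 11 (0.722%), where 1.32% of the 21834 regions tested were called (150 higher, 138 lower). The regions called among the 1524 were higher in ES lines in both. Without ES replicate 3, edgeR called 78 (53 higher, 25 lower), which is 5.12% of the 1524, where 10.1% of all tested were called. The number of calls thus changed with the tool, the reference clones and the ES lines used. In fold enrichment, tested with limma, 384 (25.2%) were lower in ES lines at an unadjusted p under 0.05, where 13.2% of all tested were, and 9 (0.591%) were higher, where 2.39% were. At an adjusted p under 0.05 limma called none of the 22466 regions tested. The median log2 difference in fold enrichment was -0.44, against -0.17 over all tested.

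The highest in ES lines by p was a stretch 159 kb from 9230109A22Rik (chr15:24907010-24907908). Its tags per M were 1.88, 2.92, 2.20 and 1.97 in the Aid+/+ clones and 7.73, 7.14 and 1.81 in ES replicates 1, 2 and 3, a log2 difference of 2.21 ± 0.52 (SE, adjusted p = 0.239 in edgeR). In tags per M, ES replicates 1 and 2 were high, and replicate 3 was no higher than the Aid+/+ clones. The log2 differences follow TMM scaling and so differ from those of the tags per M. A stretch 30.4 kb from Gm4778 (chr3:94036081-94037549) had 4.40, 5.16, 5.88 and 5.61 against 13.4, 6.20 and 4.90 tags per M, with a log2 difference of 1.39 ± 0.36 (SE, adjusted p = 0.242 in edgeR). Here ES replicate 3 lay within the range of the iPS clones in tags per M.

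Lower in ES lines were an exon of Pmfbp1, a gene of sperm structure (chr8:112048725-112049789), and an intron of Pacsin1, which codes for a protein of synaptic vesicle uptake (chr17:27834549-27835389). In Pmfbp1 the tags per M were 4.84, 7.65, 8.31 and 8.93 in the Aid+/+ clones and 2.45, 1.48 and 2.39 in the ES lines. In Pacsin1 they were 4.27, 6.54, 5.72 and 4.98 against 1.66, 1.14 and 2.00. In tags per M the ES lines lay below all Aid+/+ clones at both regions. On that scale the median log2 difference over all regions tested was -0.68. With TMM scaling in edgeR, the log2 differences of these regions were -1.11 ± 0.31 and -1.04 ± 0.30 (SE), with adjusted p of 0.242 and 0.248. Both lay within 1.22 kb of a MEF peak.

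Genes holding the regions were counted over the gene and the 5 kb before its start. Of 21418 protein-coding genes, 731 (3.41%) had such a region, and 4425 (20.7%) had a region of all 14 samples. In the gene body alone 678 had one, of which 623 held a single region, 55 at least 2 and 14 at least 3. Besides Gm20388, with 13, the most were held by Smyd3, a lysine methyltransferase, Wwox, a large gene at a fragile site, and Cdh13, which codes for T-cadherin, with 5 each, and by Dst and the guidance ligand Slit3 with 4 each. These are long genes, from 400 to 1040 kb. The rest of the first 10 were Tns1, App, Dnahc8 and Tiam1 with 3 each, in genes of 214 to 357 kb. Per length, among genes of at least 20 kb, the muscle myosin gene Myh2 came first with 2 regions in 26.5 kb, then 1700128F08Rik, Prkar1a, Gm10974 and Gm10995, which overlaps Myh2, with 1 each in 20.1 to 20.4 kb. Of 14 bins of 1 Mb with at least 20 regions of either set, the highest share (9 regions beside 13 of all 14 samples, 40.9%) lay at chr1:191000001-192000000, over Kcnk2, Prox1 and Ptpn14, against a median of 14.7%, and bins over Dst and Fam168b and over Gm20388 followed with 25% each.

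Several gene families held none of these regions. None was found at 46 early lineage regulators, 40 Hox genes, 15 T-box genes or 24 clustered protocadherins, nor at 25 epithelial genes, 46 keratins or 36 imprinted genes. With 3.41% of all protein-coding genes holding a region, lists of 15 to 46 genes are too short to show an absence. Whether these families differ from all protein-coding genes was not tested. Imprinted genes often held a region of all 14 samples instead (23 of 36), and so did epithelial genes (8 of 25), whereas Hox genes had none of either kind. Sox genes had 1 of 18 (an exon of Sox8), Fox genes 2 of 39 (exons of Foxp1 and Foxp4), and Wnt genes 1 of 19 (an exon of Wnt3a).

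Genes tied to a cell type were counted beside the 3.41% of all protein-coding genes, and a single gene of each list had a region. Of 51 fibroblast and mesenchymal genes 1 (1.96%) had a region, an intron of Col5a1, a fibrillar collagen (chr2:27795377-27796354), with a fold enrichment of 30.7 ± 7.22 in the Aid+/+ clones (SD, n = 4), 27.4 ± 6.79 in the Aid-/- clones (SD, n = 4) and 15.3 ± 7.17 in the ES lines (SD, n = 3). Of 22 pluripotency genes 1 (4.55%) had a region, 1.13 kb before Nr5a2, a nuclear receptor that acts on Pou5f1 (chr1:138858131-138858862), and it was not in the gene body. Of 31 germline genes 1 (3.23%) had a region, an intron of Rnf17, a tudor protein of male germ cells (chr14:57034126-57034944), with 33.6 ± 6.14, 26.4 ± 4.26 and 30 ± 8.37 in the same groups. Sohlh1 was not on that list. Of 19 DNA methylation enzymes 1 (5.26%) had a region, an exon of Dnmt1 (chr9:20715458-20717034), with 8.38 ± 2.67, 8.08 ± 2.32 and 9.79 ± 5.17.

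Families of surface proteins and channels were mixed. Cadherins had 3 of 23 (13%), in Cdh13, Cdh23 and Cdh15, and glutamate receptors 3 of 27 (11.1%), in introns of Grin2a, Grik4 and Grm4. Regions of all 14 samples lay at 65.2% and 66.7% of the genes in these families. Potassium channels had 3 of 81 (Kcnd3, Kcna10 and Kcnk2), collagens 2 of 41 (Col25a1 and Col5a1), zinc finger (Zfp) genes 10 of 337 (2.97%, led by Zfp784, Zfp583, Zfp536 and Zfp407) and cytochrome P450 genes 4 of 90 (Cyp2f2, Cyp2c70, Cyp3a44 and Cyp2e1). Olfactory receptors had 3 of 1081 (Olfr1426, Olfr1428 and Olfr1395) and vomeronasal receptors 1 of 322 (Vmn2r104), which is 0.278% and 0.311%, and regions of all 14 samples were rare there too (27 and 19). The best Cdh13 region, an intron at chr8:120908822-120909860, had a fold enrichment of 31.1 ± 3.63 in the Aid+/+ clones (SD, n = 4), 26.8 ± 6.39 in the Aid-/- clones (SD, n = 4) and 25 ± 4.35 in the ES lines (SD, n = 3).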

How the data were processed

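MBD-seq libraries of 8 iPS clones, 3 ES lines and 3 MEF cultures were sequenced as single reads by the authors. Per the submitters' processing notes, CASAVA 1.8.1, BWA 0.5.9rc1 and MACS 1.4.1 were used with the mouse build mm9 (NCBI build 37). Per the file headers, peaks were called in each sample without a control at a p-value cutoff of 1e-05, with at most 2 tags per position and a local background of 10 kb, by MACS 1.4.1 in 9 samples and 1.4.0rc2 in 5. The deposited tables give for each peak the count of tags, the fold enrichment (a ratio) and a multiple of −log10 of the p-value, rescaled here to −log10 p. They list called peaks only, so no tag count exists where a sample had no peak.

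Peaks on chromosomes 1 to 19 were merged at an overlap of 1 bp. Tags were summed over the peaks of a sample in a region, and fold enrichment was that of its highest peak. Tags per M are tags per M (mega) filtered tags of the header. Regions were placed with GENCODE annotation and sequence of NCBI build 37. Summed tag counts were tested with edgeR 4.0.16 (quasi-likelihood test, TMM scaling, Benjamini-Hochberg adjustment over all regions tested) in R 4.3.3, with DESeq2 1.42.0 and limma 3.58.1 as alternatives; Python 3.11.15 was used for the rest. Scripts were tested on simulated data. Filtered tags ranged from 6.65 M to 19.6 M per sample.

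Regions were named by a rule: the 6 with the highest lowest fold enrichment, the 4 longest, 2 a direction with the lowest p, 6 promoters, up to 4 genes a list, the genes and 1 Mb bins with most regions, the 3 nearest the limit on each side, and the 3 most variable. A region named by this rule is not reported here. The regions and the gene lists were chosen with earlier results of these data known. The shared-sequence groups, the CpG-rich regions, the letter searches and the comparison at like tag number were chosen after seeing the data. No repeat annotation was used.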

Additional observations from a re-analysis of the deposited data

Results flagged for a closer look

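In groups of 4 clones, 7 of 70 sets of values held a clone far from the rest, and chance gives about 1 in 20 for independent sets. These sets share the same clones, and their regions were picked for extremes such as fold enrichment, length or p. Their number therefore cannot be set against that rate. Aid+/+ replicate 1 was the low clone of its genotype in median tags per M over the 1524 regions (2.83, against 4.73 to 4.98 in the others) and in the share of filtered tags (0.536%, against 0.821% to 0.862%). In fold enrichment, Aid-/- replicate 3 was low at Col25a1 (28.17, against 34.76 to 35.21) and high at Per1 (13.06, against 11.99 to 12.15), and Aid-/- replicate 4 was low near Gm17391 (10.72, against 12.95 to 13.39). Aid+/+ replicate 3 was high at Gm10121 (38.43, against 33.06 to 33.79) and at Cd93 (39.68, against 29.57 to 31.25).

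Chromosome X lies outside the chromosomes used, and 78 of its merged regions held a peak of all 11 pluripotent samples and of no MEF culture, which is 7.34% of the 1062 with a peak of all pluripotent samples.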

How the results depend on the processing

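The number of regions depended on which peaks were kept. It was 321 when pluripotent peaks had to reach p of 1e-10 with all MEF peaks kept, and 518 at 31650 peaks in every sample. Leaving out 1 sample gave 1527 to 4730, with 4730 without ES replicate 2 and 2855 without MEF replicate 2. The median GC content of 47.1% became 46.8% at p of 1e-10 in every sample, 49.6% on the stretch common to the 11 pluripotent samples and 47.4% without ES replicate 2. On that common stretch CpG per 100 bp was 3.23 and the length 347 bp, which follows from its construction. Between ES lines and Aid+/+ clones, DESeq2 called 10 regions (312 of all 22466 tested) and edgeR with all 8 iPS clones 11 (288 of 21834), and leaving out 1 sample gave 0 to 78 calls, with 78 without ES replicate 3. The median log2 difference there was -0.69 with header tags as library size, beside -0.68 over all regions tested, and -0.12 to 0.07 on leaving out 1 sample. Between genotypes no region was called under any of the 15 alternatives, and the median was -0.18 to -0.03 on leaving out 1 clone. Except where given, the cause was not tested. No paired analysis by replicate number was possible because the numbers were given in accession order and pair no samples. The clone series, which ties some clones across genotypes, entered as a term and gave 0 calls and a median of -0.15. The median number of tags in these regions was lowest in ES replicate 2, at 21. Its 14.8 M filtered tags were not the fewest, which Aid-/- replicate 3 had at 6.65 M.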
